A study of Mus musculus with 6 samples.

Results

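The mTOR kinase complexes and the TSC complex that restrains them were examined in RNA from cultured mouse induced renal epithelial cells. The 10 genes were chosen by name: Mtor, Mlst8, Deptor, Rptor, Akt1s1, Rictor, Rheb, Tsc1, Tsc2 and Tbc1d7. All 10 were found among the 49671 genes of the count files, and all 10 were among the 15355 genes that passed the filter on low counts. Induced renal epithelial cells (iRECs) are made from fibroblasts by forced expression of kidney transcription factors, which gives them a tubular character. These carried the floxed Pkd1 allele of the strain B6.129S4-Pkd1tm2Ggg/J. Clones 4, 7 and 21 were each transduced with Cre recombinase (genotype Pkd1 -/-) or with Flp recombinase, which leaves the floxed gene in place (genotype Pkd1 fl/fl). Cells of both groups were grown to confluence in serum-containing medium, with 1 library per clone and group, so n = 3 per group. Each clone is a single expanded line and no label ties it to an animal of its own. The p-values therefore cover the scatter of 3 clone pairs, which may be technical.

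Library totals ran from 25196120 to 46918341 gene counts. Levels are given as CPM, the count of a gene scaled to a common library size with TMM factors, and a count of 0 allowed at most 0.121 CPM in the shallowest library, counting error only. The label of the cells was checked against marker genes. All 11 renal epithelial markers were present, with summed levels of 5651 to 7100.0 CPM in Cre and 5746 to 7117 CPM in Flp. The 8 fibroblast markers summed to 8.95 to 13.9 CPM in Cre and 4.65 to 29.4 CPM in Flp, 6 of them were below 1 CPM, and Thy1 was at 0. Endothelial (Cdh5 and Kdr at 0) and haematopoietic markers (Adgre1 at 0) summed to at most 1.80 and 6.70 CPM in any library, and podocyte markers, none at 0 throughout, to at most 8.71 CPM. In bulk RNA, fewer cells expressing a gene and less of its RNA per cell cannot be told apart.

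mTOR is a protein kinase that couples nutrients, energy and growth factors to protein synthesis, cell growth and autophagy. It works in mTORC1, built with raptor, and in mTORC2, built with rictor. Rheb, a small GTPase on the lysosome, switches mTORC1 on, and the TSC complex of hamartin, tuberin and TBC1D7 switches Rheb off. In the kidney this pathway is known from tuberous sclerosis, in which loss of TSC1 or TSC2 gives cysts, and from polycystic kidney disease, where mTORC1 activity in cyst epithelium has been described. TSC2 and PKD1 are adjacent genes in human and mouse. The activity of mTOR is set mainly by phosphorylation and localisation, which RNA levels do not measure.

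The targeted gene was examined first. Pkd1, which encodes polycystin-1, was at 145 CPM in Cre against 199 CPM in Flp of clone 4, 105 and 229 CPM in clone 7, and 118 and 166 CPM in clone 21. All 3 Cre libraries lay below all 3 Flp libraries. The log2 fold change was -0.69 (SE 0.16), with an adjusted p of 0.6065 by edgeR's quasi-likelihood test with clone as a block and Benjamini-Hochberg adjustment over all genes tested. It passed the threshold of 0.05 with DESeq2 and the same block (adjusted p = 0.0363) and in edgeR with all genes kept (adjusted p = 0.0224). Its adjusted p ranged from 0.0224 to 1 over all the fits compared. The count covers every exon, so it does not measure excision of the floxed part.

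The main comparison asked whether loss of Pkd1 went along with a different RNA level of the complexes. None of the 10 genes was called between Cre and Flp by edgeR, where 0.0% of all 15355 genes were called, and none had an unadjusted p under 0.05, against 6.82% of all genes. DESeq2 with the clone block also called 0 of the 10, against 1.31% of the genes it tested. In edgeR 0 of the 10 were called with all genes kept, against 0.792%, and 0 with library depth as a covariate, against 0.176%. Fitted log2 fold changes lay between -0.19 for Tbc1d7 and 0.17 for Rheb, 5 above and 5 below 0, with edgeR adjusted p from 0.8736 to 0.9901. The median of the 10 was 0.03, beside 0.00 over all genes tested. The median size of the change regardless of sign was 0.11, and 0.11 also over the 9673 genes averaging 10 CPM or more.

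These fits bound the size of a difference rather than show that there was none. For 8 of the 10 genes the 95% interval of the fold change stayed within 1.5-fold in either direction. The exceptions were Tbc1d7, with an interval from 0.638-fold to 1.20-fold, and Deptor, from 0.525-fold to 1.72-fold. The narrowest interval was that of Mtor, from 0.816-fold to 1.13-fold.

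**Figure D1:**
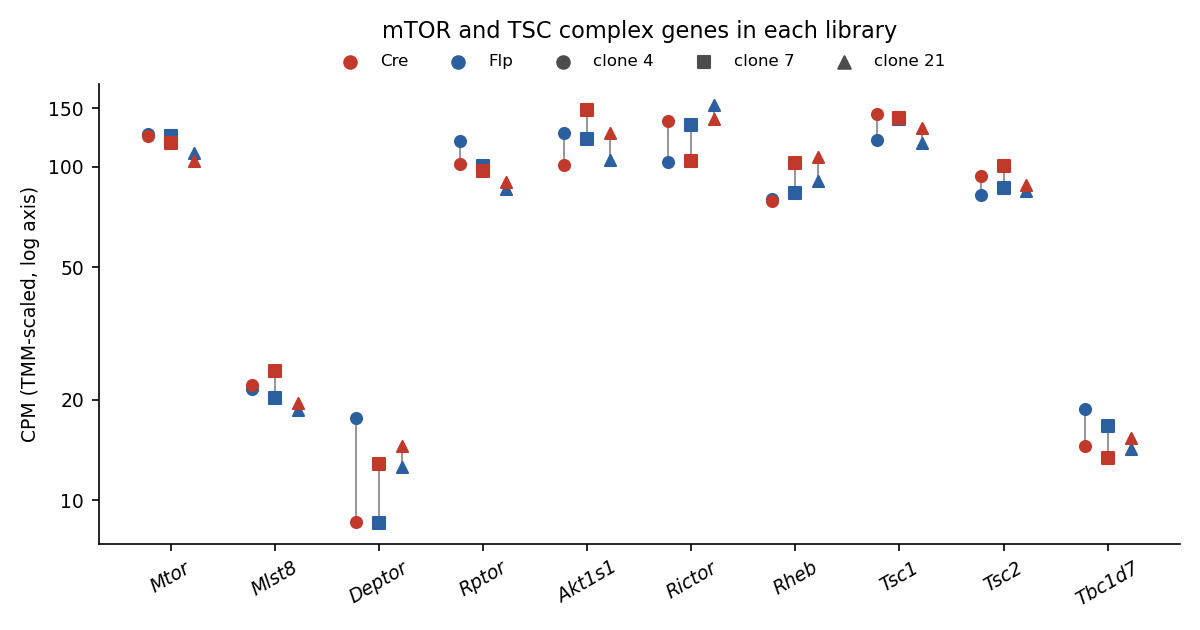
CPM of the 10 genes (log axis) in each library, with Cre in red, Flp in blue, marker shape for the clone and a line joining the pair of each clone. Mlst8, Tbc1d7 and Deptor lie below the other 7 genes, and Deptor has the longest line, from 17.7 CPM in Flp to 8.61 CPM in Cre of clone 4.

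Mtor, the kinase shared by both complexes (ENSMUSG00000028991, GRCm38 chromosome 4, 148448611 to 148557683), was the steadiest of the 10. It was at 124 CPM in Cre against 125 CPM in Flp of clone 4, 118 and 124 CPM in clone 7, and 104 and 110.4 CPM in clone 21. Cre was marginally the lower in each clone, and the groups overlapped at 115 ± 10.1 CPM against 119.8 ± 8.18 CPM (SD, n = 3). Its 3 clone ratios on the log2 scale, -0.02, -0.07 and -0.09, differed by 0.068 from lowest to highest. Of the genes averaging 10 CPM or more, 2.52% had a smaller span.

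Mlst8 encodes the small WD-repeat protein bound to the kinase domain in both complexes (ENSMUSG00000024142, chromosome 17, 24473551 to 24479078). It was at 22.1 CPM in Cre against 21.5 CPM in Flp of clone 4, 24.3 and 20.2 CPM in clone 7, and 19.6 and 18.6 CPM in clone 21. Cre was the higher in each clone, within counting error in clones 4 and 21. The groups overlapped, and the log2 fold change of 0.13 had an SE of 0.15. Of its exon bases, 997, or 22.5%, also belong to Bricd5, a gene on the opposite strand whose exons lie wholly inside those of Mlst8. Bricd5 had 0 reads in each of the 6 libraries, and without a stated strand setting the 2 genes' reads cannot be told apart.

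Deptor, an inhibitor that binds mTOR in both complexes (ENSMUSG00000022419, chromosome 15, 55112317 to 55259271), was the member whose clones differed most. It was at 8.61 CPM in Cre against 17.7 CPM in Flp of clone 4. In clone 7 the order was turned, with 12.8 CPM in Cre against 8.55 CPM in Flp, and in clone 21 the values were 14.5 and 12.6 CPM. The log2 ratios were -1.03 in clone 4 (95% exact interval from counting error only, -1.24 to -0.83), 0.58 in clone 7 (0.37 to 0.80) and 0.21 in clone 21 (0.02 to 0.40). Each of these intervals excludes 0, but each rests on 1 library per group and has no replicate check.

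Over the 3 clones the Deptor differences cancelled. The fitted log2 fold change was -0.08 (SE 0.35), and it was 0.39 when clone 4 was left out and -0.41 when clone 7 was left out. It was 0.19 with library depth as a covariate. The span of its clone ratios, 1.62, was larger than that of 96.9% of the genes averaging 10 CPM or more. It was the 1 member of 10 with a clone ratio of at least 1 in either direction, which 21.6% of all genes and 6.78% of those averaging 10 CPM or more had. The libraries held 335 to 689 Deptor reads each, and Gm9920, a transcript on the opposite strand over its 5′ end, at most 7. Within 5 Mb of Deptor, 28 genes averaging 5 CPM or more had medians of -0.05, 0.13 and -0.04 in clones 4, 7 and 21, so its neighbours did not share its ratios.

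Deptor was also the member with the widest range over the 6 libraries, and its pattern was set against 10741 other genes averaging 5 CPM or more. The closest were Rraga (Pearson r 0.995), Slc25a33 (0.98) and Ccdc34 (0.98), as a description over 6 libraries. They were picked as the highest of 10741 values, so a high r follows in part from the search, and a link to Deptor was not tested. Rraga encodes a Rag GTPase that brings mTORC1 to the lysosome. Its values lay in a far narrower range, from 53.3 CPM in Flp of clone 7 to 67.3 CPM in Flp of clone 4.

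Rptor encodes raptor, the subunit that recruits substrates to mTORC1 (ENSMUSG00000025583, chromosome 11, 119602905 to 119899576). It was at 102 CPM in Cre against 119 CPM in Flp of clone 4, 97.4 and 100.4 CPM in clone 7, and 89.9 and 85.9 CPM in clone 21. Cre was the lower in clones 4 and 7, and the log2 fold change was -0.07 (SE 0.11), or 0.011 without clone 4. The antisense gene Rptoros, which shares 84 of its exon bases, had at most 9 reads in a library.

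Akt1s1 encodes PRAS40, an mTORC1 component that holds the kinase in check until AKT phosphorylates it (ENSMUSG00000011096, chromosome 7, 44848991 to 44855421). It was at 101 CPM in Cre against 126 CPM in Flp of clone 4. In clones 7 and 21 Cre was the higher, at 149 against 121 CPM and 127 against 105 CPM. The log2 ratios were -0.32, 0.29 and 0.27, and the fitted change of 0.08 (SE 0.15) became 0.28 without clone 4 (unadjusted p = 0.0487, adjusted p = 0.4484 by edgeR) and -0.022 and -0.017 without clones 7 and 21. It shares 89 exon bases with Tbc1d17, a gene on the opposite strand. Clone 4 thus had the opposite sign to the other 2 clones for the inhibitory components Deptor and Akt1s1. This was not particular to inhibitors, since Rictor (0.42 in clone 4) and, within counting error, Rheb (-0.03) also had the opposite sign there. The 83 genes within 5 Mb of Akt1s1 averaging 5 CPM or more had medians of -0.13, 0.11 and -0.09 in clones 4, 7 and 21.

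Rictor, the defining subunit of mTORC2 (ENSMUSG00000050310, chromosome 15, 6708379 to 6800401), was higher in Cre in clone 4 and lower in Cre in clones 7 and 21. It was at 138 CPM in Cre against 103 CPM in Flp of clone 4, 104 and 133 CPM in clone 7, and 139 and 153 CPM in clone 21. The log2 ratios were 0.42, -0.36 and -0.14, and the fitted change was -0.03 (SE 0.17). It was -0.25 without clone 4, 0.14 without clone 7 and 0.03 without clone 21.

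The balance of the 2 complexes was followed by the ratio of Rictor to Rptor within a library, each per kilobase (kb) of exon, which does not depend on library scaling. In Cre it was 1.07, 0.848 and 1.23 in clones 4, 7 and 21, and in Flp 0.688, 1.06 and 1.42. Clone 4 was the only clone of the 3 with the higher ratio in Cre. The log2 difference between Cre and Flp averaged 0.04 ± 0.52 (SD, n = 3), with a two-sided exact sign-flip permutation p of 1. With 3 pairs this test cannot go below 0.25. Leaving out clone 4 turned the mean difference to -0.26. The ratio of Deptor to Mtor ran from 0.0791 in Flp of clone 7 to 0.162 in Flp of clone 4, with a mean log2 difference of -0.02 ± 0.88 (SD, n = 3, exact permutation p = 1) that turned to 0.47 without clone 4.

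**Figure D2:**
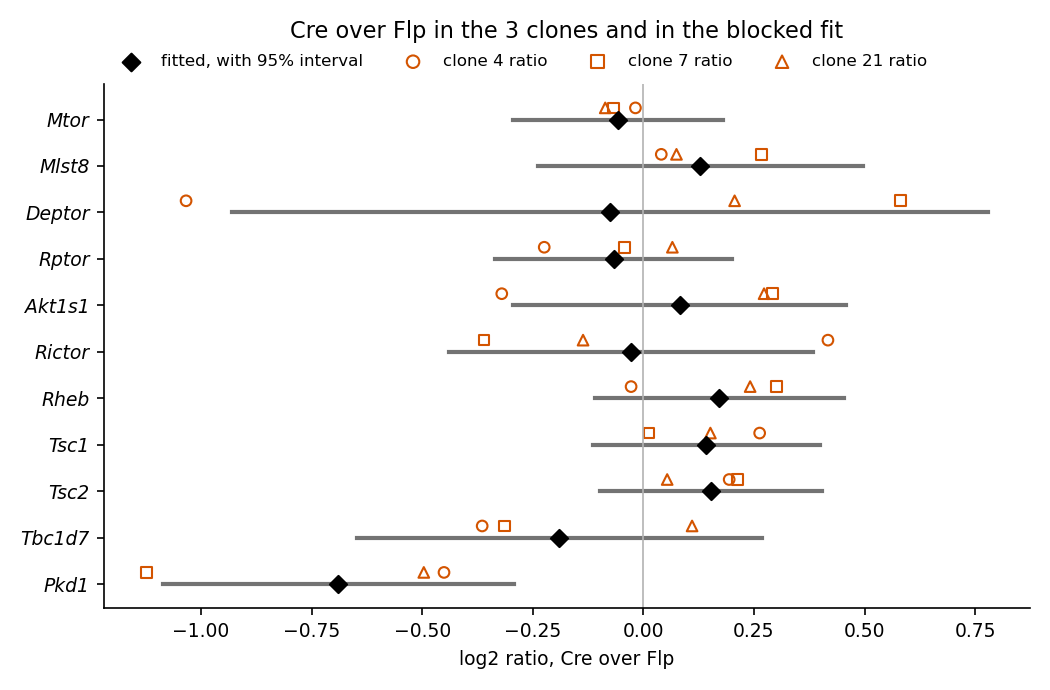
Log2 ratio of Cre over Flp for the 10 genes and Pkd1: black diamonds and bars are the fitted value and its 95% interval, open orange markers the ratio in each clone. Every interval of the 10 genes includes 0, and the open markers of Deptor are spread from -1.03 to 0.58.

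Rheb, the GTPase that activates mTORC1 (ENSMUSG00000028945, chromosome 5, 24802823 to 24842624), was at 78.7 CPM in Cre against 80.2 CPM in Flp of clone 4. It was at 103 and 83.5 CPM in clone 7 and at 107 and 90.8 CPM in clone 21. The log2 fold change of 0.17 (SE 0.11) was the highest among the 10, and its 95% interval ran from -0.11 to 0.45. Cre was the higher in clones 7 and 21, while clone 4 had a ratio of -0.03.

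Tsc1 encodes hamartin, the scaffold of the TSC complex (ENSMUSG00000026812, chromosome 2, 28641228 to 28691167). It was at 144 CPM in Cre against 120.2 CPM in Flp of clone 4, 140.1 and 139 CPM in clone 7, and 131 and 118 CPM in clone 21. Cre was the higher in each clone, by a margin within counting error in clone 7, and the groups overlapped. The log2 fold change was 0.14 (SE 0.10).

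Tsc2 encodes tuberin, the subunit that makes Rheb hydrolyse GTP (ENSMUSG00000002496, chromosome 17, 24595816 to 24632630). It was at 93.9 CPM in Cre against 82.1 CPM in Flp of clone 4, 100.4 and 86.6 CPM in clone 7, and 88.0 and 84.8 CPM in clone 21. It was the only member among the 10 whose groups did not overlap, a pattern that 8.13% of all genes tested showed. The log2 fold change was 0.15 (SE 0.10, edgeR adjusted p = 0.8736), from a mean of 94.1 ± 6.21 CPM in Cre against 84.5 ± 2.27 CPM in Flp (SD, n = 3). Mtor, Mlst8, Tsc1 and Tsc2 had the same direction in all 3 clones, 4 of 10, where 27.7% of all genes did. Each of the 4 had at least 1 clone ratio within counting error, for Mtor and Tsc2 in clones 4 and 21 respectively.

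Tbc1d7, the third TSC subunit (ENSMUSG00000021368, chromosome 13, 43151740 to 43171501), was at 14.6 CPM in Cre against 18.8 CPM in Flp of clone 4. It was at 13.4 and 16.7 CPM in clone 7 and at 15.4 and 14.2 CPM in clone 21. The lower level in Cre of clones 4 and 7 was not shared by clone 21, and the log2 fold change was -0.19 (SE 0.19). The ratio of Tsc1 to Tsc2 per kb stayed between 1.13 and 1.30 in all 6 libraries. Its log2 difference between Cre and Flp was -0.01 ± 0.16 (SD, n = 3, two-sided exact permutation p = 1), or 0.083 without clone 7.

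Promoter windows from RefSeq (GRCm38.p6, 250 bases before to 50 after the start) were matched for 9 of the 10 genes. They were searched for CACGTG, the core of the sites bound by TFEB, a lysosome regulator that mTORC1 keeps out of the nucleus. This palindrome reads the same on both strands. It was present in 2 of the 9 windows and in 7.15% of all 32851 windows. The longer GTCACGTG, which contains it, was searched on both strands and was in 1 of the 9 and in 2.25% of all. Of the 9 windows, those of Mtor and Akt1s1 did not have their last 50 bases found in a transcript of the gene. The 30 bases around the motif are shown on the strand of the gene, with the motif in capitals. These are the stretches of the members that hold it.
Rheb, chr5:24842440-24842469, minus strand: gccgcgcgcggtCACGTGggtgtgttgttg
Tbc1d7, chr13:43171537-43171566, minus strand: ccggttaacatcCACGTGtgggtgggactc
The motif began 96 bases before the RefSeq start of Rheb and 53 bases before that of Tbc1d7. The start of Rheb in RefSeq lies inside the gene span given above from GENCODE, so its stretch is within the gene by that annotation. The match describes the letters only, and the fitted changes of these genes had opposite signs, 0.17 and -0.19.

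Tsc2 and Pkd1 meet at their 3′ ends. On chromosome 17 the 693 bases from 24595816 to 24596508 are exon in both genes, which is 7.20% of the exon bases of Tsc2 and 3.98% of those of Pkd1. Reads from there cannot be assigned without a stated strand setting. The genes nonetheless stood at different values, with log2 ratios of 0.19, 0.21 and 0.05 for Tsc2 and -0.45, -1.12 and -0.50 for Pkd1 in clones 4, 7 and 21. The lowest coordinate of Mlst8 lies at -76.3 kb from that of Pkd1. Of 18 annotated genes with their lowest coordinate within 100 kb of the Pkd1 gene, itself included, 13 others were tested, 7 higher and 6 lower in Cre, and none had an unadjusted p under 0.05. Their log2 fold changes lay between -0.14 for Syngr3 and 0.39 for Rab26, and Traf7 and Nthl1 stood at -0.11 and -0.05.

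**Figure D3:**
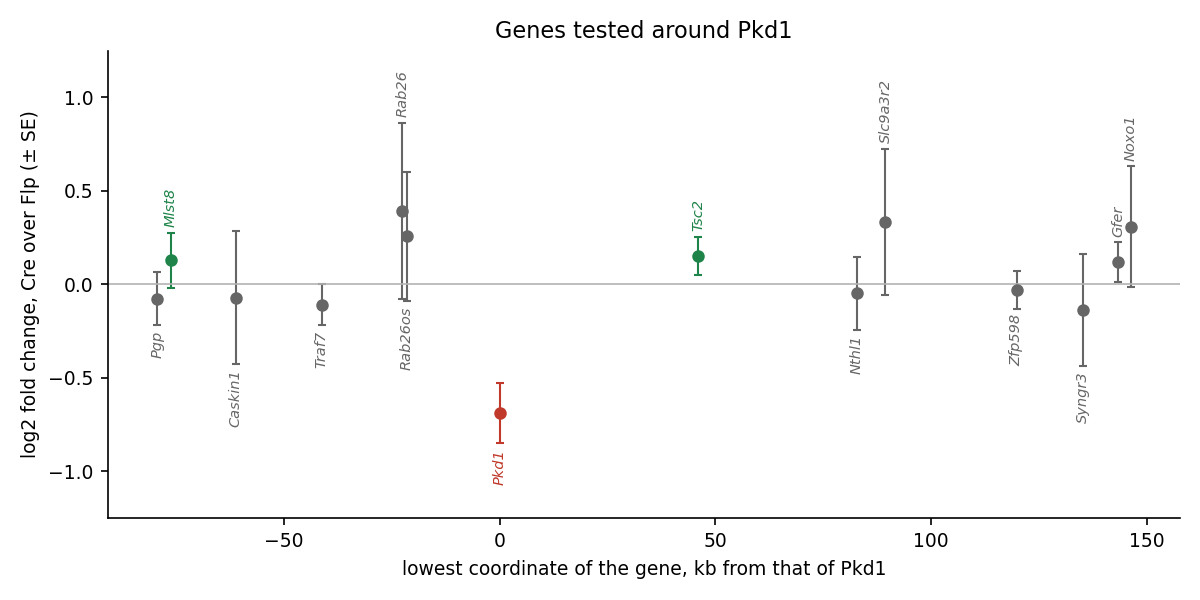
Log2 fold change of Cre over Flp with its standard error for each gene tested around Pkd1, against the distance of the gene's lowest coordinate from that of Pkd1 in kb. Tsc2 and Mlst8 are in green at 0.15 and 0.13, and Pkd1 in red at -0.69 lies below all of its tested neighbours.

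Levels were compared between genes per kb of annotated exon. Akt1s1 was the most abundant at a mean of 39.5 CPM per kb (32.9 to 48.4 over the 6 libraries), above 91.8% of all genes tested. Rheb, Mtor and Tsc1 followed at 11.7, 11.6 and 11.2 CPM per kb, then Tsc2 at 9.28, Rictor at 7.59 and Rptor at 7.36. Mlst8 was at 4.74, Tbc1d7 at 3.84 and Deptor at 1.40 CPM per kb, the last above 27.3% of all genes tested.

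The ranges of neighbours in this order over the 6 libraries overlapped, except at 3 steps: Akt1s1 to Rheb, Rptor to Mlst8 and Tbc1d7 to Deptor. The kinase and its defining partners thus lay within a narrow band, while the inhibitors PRAS40 and DEPTOR stood at its far ends. An overlap of ranges does not compare 2 genes within a library. Tsc1 and Tsc2 had overlapping ranges, yet their ratio per kb was 1.13 to 1.30, above 1 in each library. The order rests on the exon length used. With the same full counts divided by only the exon bases not shared with another gene, Mlst8 was at 6.12 CPM per kb (5.40 to 7.07). That overlaps Rptor at 7.40 (6.41 to 8.90). Such values apply only if no read from the shared bases was counted, which is not known.

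**Figure D4:**
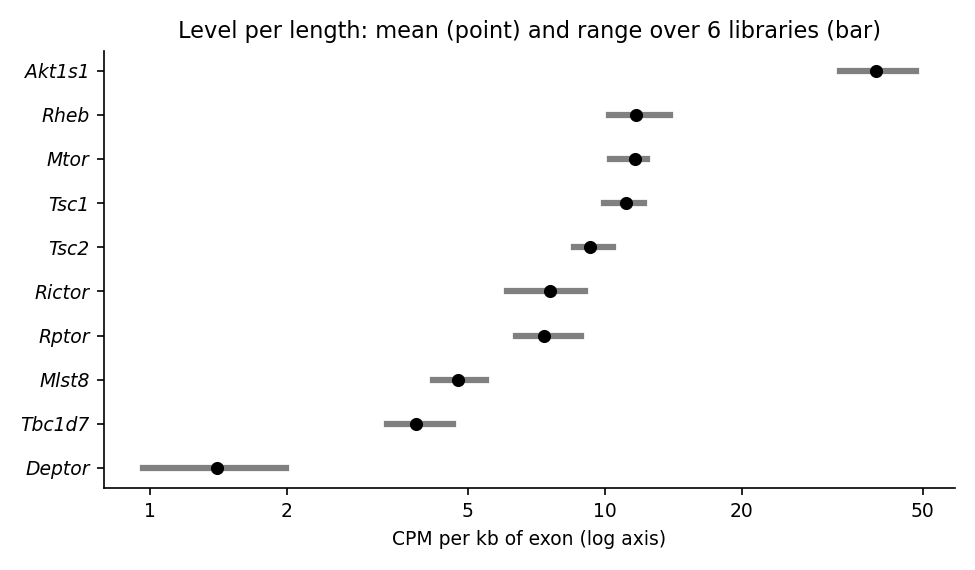
CPM per kb of exon (log axis) for the 10 genes, as the mean over 6 libraries (point) with the lowest and highest library (bar). Akt1s1 lies apart at 39.5, Deptor lies apart at 1.40, and the bars from Rheb to Rptor form an overlapping series.

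The next comparison asked whether clones differed in the level of these genes whatever the recombinase. By edgeR's test of both clone terms, 0 of the 10 were called, against 0.00651% of all genes, and 0 had an unadjusted p under 0.05, against 8.0%. DESeq2's likelihood ratio test also called 0 of the 10, against 437 of the 16221 genes it tested. The edgeR adjusted p ranged from 0.7427 for Rptor to 0.9579 for Tbc1d7. Rptor ran from 102 and 119 CPM in clone 4 to 89.9 and 85.9 CPM in clone 21, a difference that did not pass.

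All 10 genes were listed in the authors' deposited table. Its log2 fold changes for Cre over Flp had the same sign as those computed here for 10 of 10, between -0.15 for Tbc1d7 and 0.16 for Rheb. Over the genes tested 95.6% of signs matched, and the direction of the authors' fold change was itself read from that match. In the authors' deposited table, 0 of the 10 had a DESeq2 adjusted p under 0.05, where 1.37% of the genes with an adjusted p did, and each was listed at 0.9991. For Pkd1 the authors' deposited table gave -0.57 with a DESeq2 adjusted p of 0.037. Both analyses used the same libraries.

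Other genes of the pathway were then examined in 7 lists of 109 genes, of which 108 were tested. With edgeR 0 of the 108 were called, the lowest adjusted p was 0.6455, and 5 had an unadjusted p under 0.05, or 4.63% beside 6.82% of all genes. The remaining mTORC2 subunits and the TTT chaperones that assemble mTOR had a median of 0.09 over 6 genes, 5 of them with a log2 fold change above 0. Prr5l, which encodes a rictor-binding protein, had the smallest p of these and was at 26.9 ± 4.24 CPM in Cre against 20.5 ± 3.59 CPM in Flp (SD, n = 3), with clone ratios of 0.13, 0.67 and 0.39. Its relative Prr5 had ratios of -0.40, 0.70 and 0.64, and Mapkap1, which encodes the mTORC2 subunit SIN1, had -0.12, 0.32 and 0.20. The TTT gene Tti1 stood at -0.49 in clone 21, where the 79 genes around it had a median of -0.53.

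The Rag GTPases, the Ragulator that anchors them and the amino acid sensors had a median of 0.03 over 28 genes tested, 16 above and 12 below 0. Rragd, a Rag GTPase, had the smallest p of the list, with a log2 fold change of 1.22 (SE 0.39, unadjusted p = 0.0212, adjusted p = 0.6455 by edgeR). It was at 5.37 CPM in Cre against 1.53 CPM in Flp of clone 4, 11.8 and 9.57 CPM in clone 7, and 2.63 and 0.826 CPM in clone 21. Cre was the higher within each clone, but the groups overlapped because clone 7 stood above the others in both. Flcn, the GTPase-activating protein for RagC and RagD, was at 131 ± 5.995 CPM in Cre against 117 ± 5.33 CPM in Flp (SD, n = 3) with no overlap and a log2 fold change of 0.16. Of all genes tested 8.13% had no overlap, and Flcn was named for its small p, which favours such a pattern. Castor1, the arginine sensor, was at -0.28, and the abundant Lamtor2 and Rraga were at -0.12 and -0.04.

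Growth factor input, from the insulin receptor to AKT, had a median of -0.02 over 15 genes, 6 above and 9 below 0. The insulin receptor substrate gene Irs1 was at -0.37 (SE 0.20), and Insr was at 0.12. Akt1, the most abundant per kb, was at 294 ± 21.0 CPM in Cre against 302 ± 41.3 CPM in Flp (SD, n = 3). Energy and stress inputs had a median of 0.00 over 12 genes. Ddit4l, a relative of the mTORC1 inhibitor REDD1, was at 9.95 ± 0.858 CPM in Cre against 6.69 ± 0.960 CPM in Flp (SD, n = 3), with no overlap. Like Flcn, it was named for its small p, and 8.13% of all genes tested had no overlap. Its ratios were 0.63, 0.70 and 0.39, and its edgeR adjusted p was 0.6864. Ddit4, the gene of REDD1 itself, was opposite in clone 4, with ratios of -0.82, 0.45 and 0.34. Rhebl1, a relative of Rheb, was at -1.14 in clone 21 only, with 0.08 and -0.21 in clones 4 and 7.

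Effectors of the complexes had a median of 0.05 over 19 genes, 12 above and 7 below 0. Pdcd4, a translation inhibitor degraded after phosphorylation by S6 kinase, was at 39.9 ± 12.1 CPM in Cre against 28.6 ± 4.17 CPM in Flp (SD, n = 3). Its log2 fold change was 0.44 (SE 0.15, edgeR adjusted p = 0.6738). The lipin gene Lpin1 was at -0.53 (SE 0.24), and the cap-binding protein gene Eif4e at 0.24 (SE 0.12). Eif4ebp1, whose product holds eIF4E inactive, had a fitted value of 0.01 made of opposite ratios, -0.55, 0.94 and -0.34 in clones 4, 7 and 21.

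Lysosome and autophagy genes known as TFEB targets had a median of -0.13 over 16 genes, 5 above and 11 below 0. Lamp1, a lysosomal membrane protein, was at 986 ± 16.6 CPM in Cre against 1132 ± 83.2 CPM in Flp (SD, n = 3) with no overlap. Its log2 fold change was -0.20 (SE 0.11, edgeR adjusted p = 0.8524). The cathepsin gene Ctsd was at 0.01. Ctsb, another cathepsin gene, was at 0.40, but the 42 genes around it had medians of 0.81 and 0.62 in clones 7 and 21, above its own ratio of 0.49 in clone 7 and near that of 0.68 in clone 21. The proton pump gene Atp6v1h was at 146 ± 14.2 CPM in Cre against 122 ± 0.903 CPM in Flp (SD, n = 3), with no overlap. Atp6v1h was named for its small p and Lamp1 for its abundance, and 8.13% of all genes tested had no overlap. Exon bases shared with another gene made up 34.4% of Ctsd, 30.9% of Irs1, 18.0% of Rhebl1, 12.8% of Ctsb and 9.31% of Lamp1, so the counts of these genes are uncertain.

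Genes of amino acid supply under the transcription factor ATF4, which is translated more when mTORC1 is active and also in the integrated stress response, differed by clone. In clone 7, 10 of 12 had a log2 ratio over 0.5, against 12.5% of all genes tested, and the list median was 0.97. In clones 4 and 21 none did, against 14.9% and 14.1% of all genes, and the medians were -0.22 and -0.25. The fitted log2 fold changes therefore had a median of 0.19, with 9 above and 3 below 0 and 0 called by edgeR.

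Atf4 itself was at 377 CPM in Cre against 385 CPM in Flp of clone 4, 545 and 277 CPM in clone 7, and 423 and 409 CPM in clone 21. The Flp library of clone 7 was thus the lowest and the Cre library of clone 7 the highest of the 6. The folate enzyme gene Mthfd2 had the same extremes, with 211 and 94.6 CPM in clone 7 and 139 to 165 CPM in the other 4 libraries. The cystine carrier gene Slc7a11 was at 27.2 CPM in Cre against 5.59 CPM in Flp of clone 7. Of the 12 genes, 9 were lowest in Flp of clone 7 and 9 were highest in Cre of clone 7, where 14.8% and 18.9% of all genes tested had those libraries as their extremes. Chac1 and Trib3, also stress-induced, had ratios of 1.54 and 1.67 in clone 7. With 1 library per clone and group the clone 7 values have no replicate check. Slc7a11 and Trib3 were chosen after their values were seen.

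**Figure D5:**
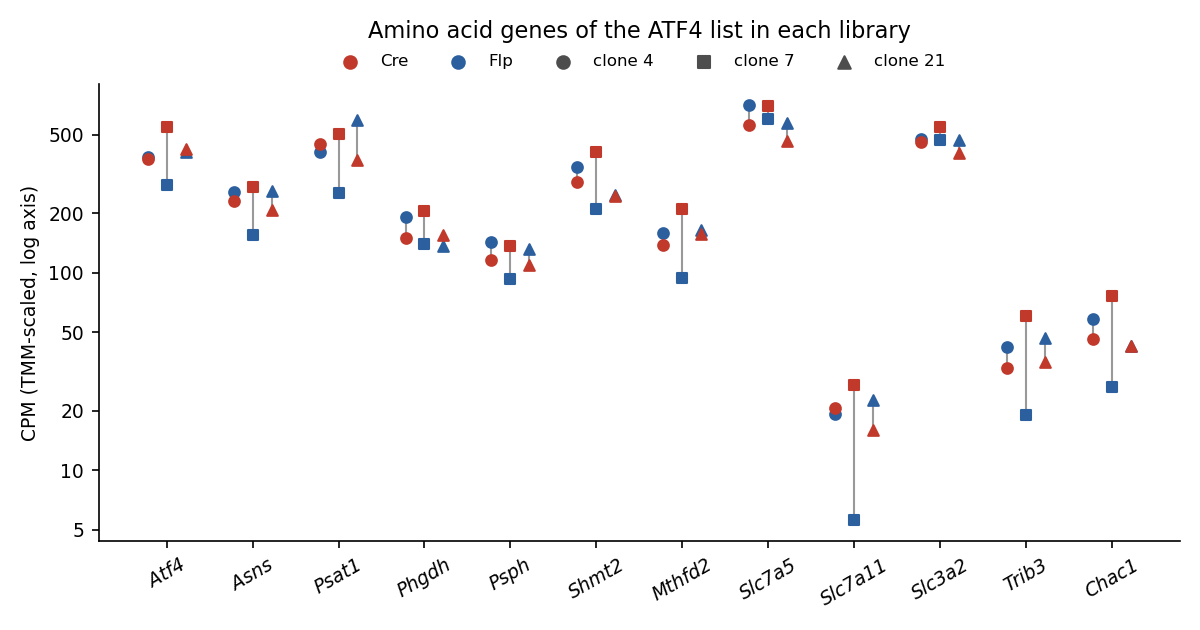
CPM (log axis) of the 12 genes of the ATF4 list in each library, with Cre in red, Flp in blue, marker shape for the clone and a line joining the pair of each clone. In clone 7 (squares) Cre lies above Flp for all 12 genes, from 27.2 against 5.59 CPM for Slc7a11 to 695 against 597 CPM for Slc7a5.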

How the data were processed

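RNA-seq was analysed from 6 libraries, Cre and Flp cultures of clones 4, 7 and 21. The deposited counts are whole reads per Ensembl gene, not normalized. STAR 2.5.2b-2 and featureCounts 1.6.0.3 are named in the submitters' processing notes, as are Trim Galore 0.4.3.0, the builds mm10 and GRCm38, and DESeq2 2.11.40.1. The sources used here do not state a strand setting or annotation release. The authors also deposited a comparison table. Per the file headers it holds a mean signal (base mean of normalized counts), a log2 fold change with standard error, a Wald score, the p-value and an adjusted p-value. Its fold change was read as Cre over Flp, since 95.6% of signs matched.

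Symbols, coordinates and exon lengths came from GENCODE M21 (GRCm38). Counts were fitted in R 4.3.3 with edgeR 4.0.16 (filterByExpr, TMM, glmQLFit and glmQLFTest) with clone as a block, 2 residual degrees of freedom and Benjamini-Hochberg adjustment over 15355 genes at 0.05. DESeq2 1.42.0 was an alternative. Standard errors and 95% intervals came from the F statistic, clone ratios used a prior count of 2, and their counting intervals are exact binomial ones. The block follows the series' design, and the 2 libraries of a clone deviated together from their group means, with correlations of 0.20 (clone 4), 0.12 (clone 7) and 0.30 (clone 21). No 2 libraries agreed within sampling noise (chi-square per degree of freedom at least 37.2). Fits were tested on simulated data.

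The genes, lists and alternatives were chosen with earlier results of these data known. Named genes were the 10 members, Pkd1 and its neighbours within 100 kb, 3 genes with the smallest p and 2 most abundant per kb of each list, and the 3 genes most like the most variable member. Some genes taken by this rule are not reported here.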

Additional observations from a re-analysis of the deposited data

Results flagged for a closer look

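For 3 genes the Cre over Flp log2 ratio was past 0.25 in opposite directions in 2 clones, a limit set after the data were seen. The share of all genes past this limit was not computed. The spans of clone ratios of Deptor, Rictor and Akt1s1 were larger than those of 96.9%, 79.5% and 68.6% of genes averaging 10 CPM or more. Each clone has 1 pair of libraries, so the difference between clones was not tested. Deptor was at -1.03 in clone 4 and 0.58 in clone 7. Rictor was at 0.42 in clone 4 and -0.36 in clone 7. Akt1s1 was at -0.32 in clone 4 and 0.29 in clone 7. The ratios in clone 21 were 0.21 for Deptor, -0.14 for Rictor and 0.27 for Akt1s1, with the signs of clone 7. Cre had more counts than Flp in clones 4 and 21, and fewer in clone 7. With depth as a covariate the fitted values were 0.19 for Deptor, -0.17 for Rictor and 0.17 for Akt1s1, each short of the threshold.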

How the results depend on the processing

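The number of the 10 genes called between Cre and Flp was 0 under all 8 alternatives, and between clones 0 under all 3. Over all genes, the calls between Cre and Flp numbered 0 with the clone block, 224 without the filter on low counts, 198 with DESeq2 and 27 with library depth as a covariate. They were 0 with no replicate block, with DESeq2's size factors in edgeR, and on leaving out any clone. Between clones 1 gene was called, 519 without the filter and 437 with DESeq2. Of 80 refitted values of the 10 genes, 73 kept their sign and 7, from 4 genes, did not; the lowest adjusted p among the 80 was 0.4484. On leaving out each clone in turn, Rptor ranged from -0.137 to 0.011, Rictor from -0.249 to 0.142, Akt1s1 from -0.022 to 0.282 and Deptor from -0.412 to 0.394. Deptor was also 0.19 with depth as a covariate. The log2 differences of ratios ranged from -0.26 to 0.22 for Rictor over Rptor, from -0.065 to 0.083 for Tsc1 over Tsc2 and from -0.36 to 0.47 for Deptor over Mtor. The reversals on leaving out a clone go with clone ratios of opposite sign, and the cause of the reversal with depth was not tested. Depth limits Deptor and Tbc1d7 most, with 335 to 729 reads per library.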
